A study of Mus musculus with 2 samples.

Results

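Connexins and pannexins form the channels through which epithelial cells share small molecules or release them. The 7 genes described here are the connexins Gja1, Gjb1, Gjb2, Gjb5, Gjb6 and Gjc1 and the pannexin Panx1. They were taken by symbol from the platform annotation of the array, and each had 1 of the 65952 rows of the deposited table. Of the 7, 6 are among the 19516 genes that passed a filter on dim rows, and Gjc1 is not. RNA came from the corneal epithelium of male and female C57BL/6 mice 8 weeks old. In the injured eyes all layers of the epithelium had been taken off as far as the limbus with a 0.5 mm rust ring remover, and the healing epithelium was gathered about 48 hours later with 10% of the wound still open. The uninjured epithelium came from the fellow eyes of the same animals at the same time. Each of the 2 groups had 1 array, and how many mice an array stands for is not stated in the labels. All animals had ketamine and xylazine anaesthesia.

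A connexin crosses the membrane several times, and connexins assemble into a ring that docks with a ring of the next cell to make a gap junction. Ions, metabolites and second messengers pass through it. Pannexins have a similar fold but serve mainly as single-membrane channels that let ATP out of the cell. In the cornea Cx43, the product of Gja1, is known from basal epithelial cells, keratocytes and endothelium, and Cx26 and Cx30 from the epithelium. The stretches of DNA before the starts of Gja1, Gjb2, Gjb5 and Gjb6, the corneal and epidermal connexins among the 7, are shown. Gjb2 and Gjb6 lie next to each other on chromosome 14. The 4 shown are also the 4 with a lower injured value. Stretches of Gjb1 and Panx1 were searched as well but are not shown. Each line gives the 250 bases before the RefSeq start in GRCm38.p6, 5′ to 3′ on the strand of the gene, with every match of 4 searched motifs in capitals. The motifs, searched on both strands, were the GC box GGGCGG, the TATA motif TATAAA, the AP-1 motif TGANTCA and the box CCAAT.
Gja1, chr10:56377050-56377299, plus strand: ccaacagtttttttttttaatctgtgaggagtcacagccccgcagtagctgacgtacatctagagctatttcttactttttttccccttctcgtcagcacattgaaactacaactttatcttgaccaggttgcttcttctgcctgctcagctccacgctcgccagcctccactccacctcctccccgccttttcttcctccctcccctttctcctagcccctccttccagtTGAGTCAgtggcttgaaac
Gjb2, chr14:57104703-57104952, minus strand: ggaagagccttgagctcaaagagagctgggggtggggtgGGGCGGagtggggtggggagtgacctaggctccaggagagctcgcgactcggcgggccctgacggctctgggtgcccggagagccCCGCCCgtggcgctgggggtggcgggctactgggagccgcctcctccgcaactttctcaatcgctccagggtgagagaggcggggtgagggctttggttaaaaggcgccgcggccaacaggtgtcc
Gjb6, chr14:57133612-57133861, minus strand: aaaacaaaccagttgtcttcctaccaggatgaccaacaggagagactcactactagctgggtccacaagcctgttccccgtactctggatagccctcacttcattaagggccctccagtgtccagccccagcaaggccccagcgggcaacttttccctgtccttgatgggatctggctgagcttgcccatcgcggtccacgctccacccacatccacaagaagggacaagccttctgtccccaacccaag
Gjb5, chr4:127358165-127358414, minus strand: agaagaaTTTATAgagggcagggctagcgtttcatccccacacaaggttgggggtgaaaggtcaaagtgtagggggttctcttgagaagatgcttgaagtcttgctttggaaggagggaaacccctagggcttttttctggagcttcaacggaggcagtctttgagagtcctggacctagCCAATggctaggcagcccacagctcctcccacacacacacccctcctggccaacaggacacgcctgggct

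The 4 stretches had little in common. Gja1 held 1 AP-1 match, whose first base lies 19 bases before the start, and 6.75% of 32851 such stretches of all genes hold at least 1. Gjb2 held 2 GC boxes, which 32.74% of all stretches hold, and had the highest GC content of the 4, 69.2%, against a median of 52.4% over all genes. Its neighbour Gjb6 held none of the 4 motifs, with a GC content of 56.8%. Gjb5 held 1 TATA match, read on the opposite strand and 243 bases before the start, and 1 CCAAT match. Over all genes 12.37% of stretches hold the TATA motif and 33.85% the CCAAT box. RefSeq stretches were found for 6 of the 7 genes, Gjb1 with 4 different starts. A match describes these letters and does not show that a factor binds there.

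None of the 7 genes was as much as 2-fold apart between the healing and the intact epithelium. Of the 6 that passed the low-signal filter, a brighter value at or above 5.44, 0 were higher and 0 lower by 2-fold or more. Among all 19516 genes measured, 4.14% were higher by that much, 3.91% lower, and 8.05% past 2-fold in either direction. A count of 0 among 6 genes lies near that background and is not a result about these genes. At 1.5-fold, which 19.9% of all genes passed, 0 of the 6 did. The number of arrays limits every statement: a single injured and a single uninjured array give no replicate spread, no test and no p-value.

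The connexin of basal cells, Gja1, read 6.99 in the injured array, against 7.40 in the uninjured array, on the log2 scale of the deposited intensities. The difference, injured minus uninjured, was -0.41 (1.33-fold), and 29.6% of all measured genes lay at least as far apart. Basal markers read on the same arrays went different ways. The basal keratin Krt14 read 13.38 in the injured array, against 11.16 in the uninjured array, and was 4.68-fold higher, whereas the basal keratin Krt15 was 2.29-fold lower. The proliferation marker Mki67 was 3.05-fold higher. The whole list of 8 basal markers had a mean log2 value of 11.40 in the injured array and 11.25 in the uninjured array. These values stand beside that of Gja1, and their part in it was not tested. In a bulk sample, fewer cells of a type and less RNA per cell cannot be told apart.

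The beta connexins of stratified epithelia fell into 1 gene with near-equal values and 2 with lower injured values. Gjb2, the gene of Cx26, which is known to be induced in wounded and psoriatic epidermis, read 8.93 in the injured array, against 8.97 in the uninjured array. Its difference of -0.04 (1.03-fold) was the smallest among the 6, and 89.2% of all measured genes lay at least as far apart. Its neighbour Gjb6, the gene of Cx30, a connexin of differentiated keratinocytes and of the inner ear, read 6.20 in the injured array, against 6.54 in the uninjured array. That is a difference of -0.34 (1.26-fold). Gjb5, the gene of Cx31.1, a connexin of skin and other stratified epithelia, read 7.85 in the injured array, against 8.29 in the uninjured array. Its difference of -0.45 (1.36-fold) was the most negative of the 6. Each of these values rests on 1 row and 1 array per group, and whether the differences of the adjacent pair Gjb2 and Gjb6 are unequal cannot be tested here.

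Gjb1, the gene of Cx32, known from hepatocytes and Schwann cells, had the largest difference of the 6 genes. It read 6.06 in the injured array, against 5.56 in the uninjured array, a difference of 0.50 (1.42-fold) that 23.9% of all genes matched or exceeded. Its uninjured value lies just above the low-signal level of 5.44, so the size is uncertain. Markers of Schwann cells and melanocytes had 0 of 5 measured genes past 2-fold, beside 8.05% of all genes. Their mean log2 values were 6.24 in the injured array and 6.22 in the uninjured array. Gjc1, the gene of Cx45, known from heart and smooth muscle, read 4.97 in the injured array and 4.89 in the uninjured array. Both values of Gjc1 lie below the low-signal level, so it was left out of the counts and its difference of 0.08 carries little information.

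Panx1, the ATP-release channel, read 7.83 in the injured array, against 7.51 in the uninjured array. The difference was 0.32 (1.25-fold), and 37.7% of all genes lay at least as far apart. Panx1 and Gjb1 were thus the 2 of 6 genes with a higher injured value. The other 4, Gja1, Gjb2, Gjb5 and Gjb6, had a lower one, as did 40.8% of all genes measured. Gjb2 counts among these by sign alone (-0.04). The median difference of the 6 was -0.19, beside a median of 0.058 over all genes measured.

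**Figure D1:**
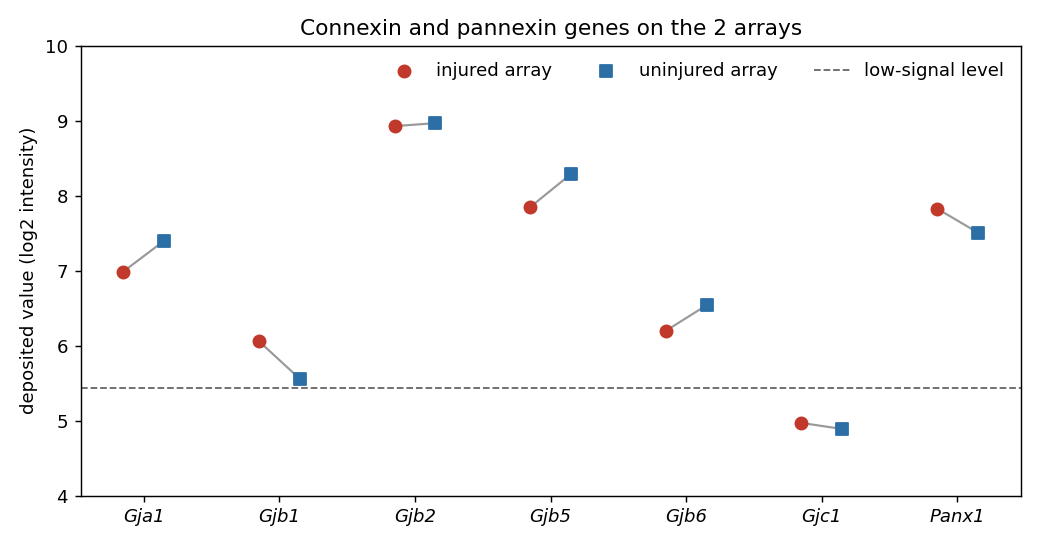
Deposited log2 intensity (vertical axis) of the 7 genes (horizontal axis) in the injured array (red circles) and the uninjured array (blue squares), 1 array each, with a line joining the values of a gene. The joining lines are short throughout, from 0.04 for Gjb2 to 0.50 for Gjb1, and both values of Gjc1 lie under the dashed low-signal level of 5.44.

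The only disagreement that these arrays can show is between rows of 1 gene. Over 521 rows of 246 genes with several rows, the log2 differences of rows of the same gene had an SD of 0.243. Of the 6 genes 5 lay farther apart than this SD, as did 46.5% of all genes measured, and Gjb2 lay within it. Only Gjb1 lay farther apart than 2 SD (0.485), as did 24.9% of all genes, and it no longer did after a loess correction (0.459) or with a linear constant added to all intensities (0.415). This SD leaves out variation that all rows of a gene share, such as a difference between animals or hybridisations. It comes from genes with several rows, while each of the 7 genes has 1. It cannot serve as the error of a comparison.

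The other family genes analysed here were also under 2-fold apart. Of 19 connexin and pannexin genes with a row named here, 13 passed the low-signal filter. Of these 13, 0 were 2-fold or 1.5-fold apart, beside 8.05% and 19.9% of all genes measured. At 2-fold, a count of 0 among 13 genes lies near that share and is not a result about the family. The median difference of the 13 was 0.02. The connexins of other tissues that passed were Gja3 of the lens (difference 0.07), Gja4 (0.02) and Gja5 (-0.15) of blood vessels. Gjd2 of neurons (-0.03), Gjd3 (0.14) and Gjd4 (0.33) passed too. Gjd4 did so through the injured array alone (5.54, against 5.20 in the uninjured array). Of the other pannexins Panx2, best known from the brain, passed (0.18) and Panx3, of bone and skin, did not (4.49 in the injured array, 4.54 in the uninjured array). Also below the low-signal level in both arrays were Gja6, Gja10, Gjc3 and Gje1.

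A value alone does not show that a gene is expressed in this tissue. Gja4 read 7.25 in the injured array and 7.23 in the uninjured array, and the row of Nkx2-5, a transcription factor of the heart, read 7.29 in the injured array and 7.22 in the uninjured array. Gja1 read close to these values, and Gjb1 and Gjb6 read below them in both arrays. Their values alone do not show expression in this tissue either. No detection call stands behind any value here.

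**Figure D2:**
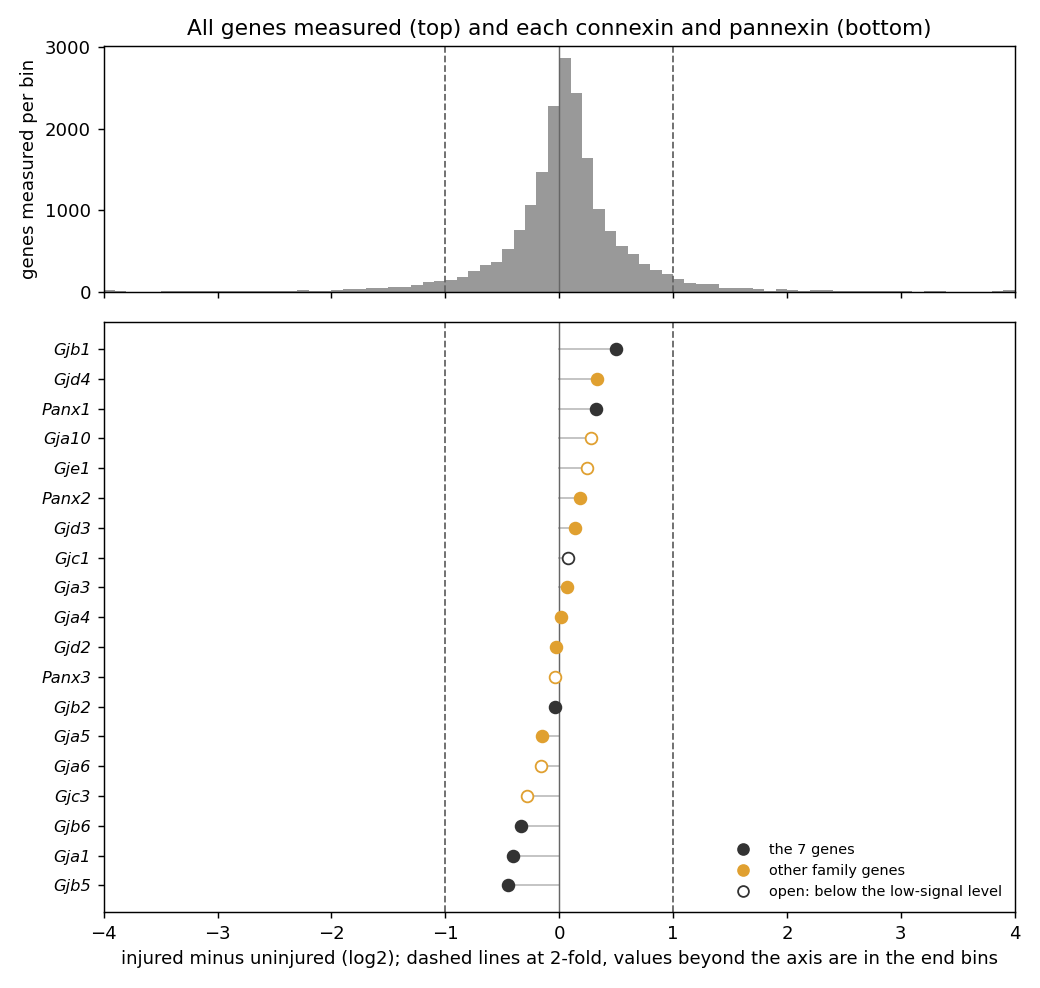
Top, number of genes measured (vertical axis) by injured minus uninjured log2 difference (horizontal axis) in bins of 0.1. Bottom, the same difference for each connexin and pannexin with a row, in black for the 7 genes and in yellow for the others, open where both values lie below the low-signal level. The family spans -0.45 to 0.50, inside the dashed lines at 2-fold, which 8.05% of all genes measured reached.

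Other junction families, chosen for this comparison after values of these arrays were known, held members past 2-fold, as 8.05% of all genes did. Of 18 measured claudins, the strand proteins of tight junctions, 2 were at least 2-fold higher, Cldn1 (1.75) and Cldn8 (1.13), and 1 lower, Cldn23 (-1.25). Of 16 measured desmosome genes 1 was at least 2-fold higher, the plaque gene Pkp2 (1.69), and 4 lower. These 4 were the desmogleins Dsg1a (-2.87), Dsg1c (-2.27) and Dsg1b (-2.15), near-identical genes whose signals may be shared, and the envelope and plaque gene Evpl (-1.28). The median difference was 0.09 for claudins and -0.36 for desmosome genes, and whether these families differ from the connexins was not tested.

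The list of junction scaffolds and connexin partners also holds genes of tight and adherens junctions, so it does not describe gap junctions alone. Of its 15 measured members 13 were under 2-fold, 2 lower by at least that much and 0 higher. Over all genes measured, 3.91% were lower by that much and 4.14% higher. A lower injured value of any size was read for 11 of the 15, and for 40.8% of all genes measured, and the median difference of the list was -0.42. The 2 genes past 2-fold were Tjp3, a tight junction scaffold, which read 8.22 in the injured array, against 9.63 in the uninjured array (-1.41), and Ccn3, a secreted protein that binds Cx43 (-1.06). When a linear constant was added to all intensities, Ccn3 was under 2-fold (-0.906). Tjp1, the scaffold ZO-1, which binds the tail of Cx43, read 10.81 in the injured array, against 11.39 in the uninjured array (-0.57).

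Enzymes and carriers that act on Cx43 gave 1 gene past 2-fold in each of their 2 lists, beside 8.05% of all genes measured. Among 13 kinases and phosphatases it was Cdk1, the mitotic kinase that phosphorylates Cx43 in dividing cells, which read 9.13 in the injured array, against 7.20 in the uninjured array (1.94, 3.82-fold higher). The median of that list was 0.08. Among 16 genes of trafficking and turnover it was Dab2, a clathrin adaptor, which read 7.51 in the injured array, against 5.03 in the uninjured array (2.48). The uninjured value of Dab2 lies below the low-signal level, and its row carries a second gene identifier with no symbol here, so both the size and the source of the difference are uncertain. The median of the list was -0.15.

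On the side of ATP, which pannexin channels release, the receptors had 0 of 8 measured genes past 2-fold, beside 8.05% of all genes. Their median was 0.15, which was 0.041 without the low-signal filter. The largest difference among them was that of P2ry2, the main ATP and UTP receptor of epithelia, which read 9.55 in the injured array, against 10.14 in the uninjured array (-0.59). P2rx7, a partner of Panx1, shares its row with a microRNA and is not analysed here. Of 9 measured genes of the list for extracellular nucleotides 1 was at least 2-fold higher and 2 lower, beside 4.14% and 3.91% of all genes. The adenosine receptors of that list lay below the low-signal level or had no row named here, so none was among the 9. Entpd3, an ecto-enzyme that removes phosphates from ATP, read 8.11 in the injured array, against 6.57 in the uninjured array (1.54, 2.90-fold higher). The alkaline phosphatase Alpl was lower (-1.36), as was the pyrophosphatase Enpp3, which read 11.02 in the injured array, against 12.03 in the uninjured array (-1.01). After a loess correction Enpp3 was just under 2-fold (-0.998).

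Genes of calcium signalling, whose messengers pass through gap junctions, had a median of -0.43 over 8 measured, beside 0.058 over all genes. At least 2-fold lower were 2, the phospholipases Plcb4 (-1.14) and Plcd1 (-1.13), and 0 were higher. Of all genes measured, 3.91% were lower by that much and 4.14% higher. Plcb4 was just under 2-fold with the added constant (-0.995). Other large-pore channels had 1 of 9 in each direction, both subunits of the volume-regulated anion channel. Lrrc8c read 9.29 in the injured array, against 7.96 in the uninjured array (1.33), and Lrrc8b read 8.84 in the injured array, against 9.91 in the uninjured array (-1.07). Lrrc8a, the subunit that the channel cannot do without, differed by 0.46.

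Of 11 measured transcription factors known to act on connexin promoters 2 were at least 2-fold lower and 0 higher, with a median of -0.22. The AP-1 subunit Fos read 7.75 in the injured array, against 9.75 in the uninjured array (3.99-fold lower), and Foxo1 was 2.23-fold lower (-1.16). The AP-1 partner Jun differed by -0.13. Of the 4 stretches shown above, that of Gja1 was the 1 with an AP-1 match, and the part of Fos in the value of Gja1 was not tested. Over all 8 lists outside the family, 4 of 89 measured genes were higher and 9 lower by 2-fold or more, beside 4.14% and 3.91% of all genes.

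**Figure D3:**
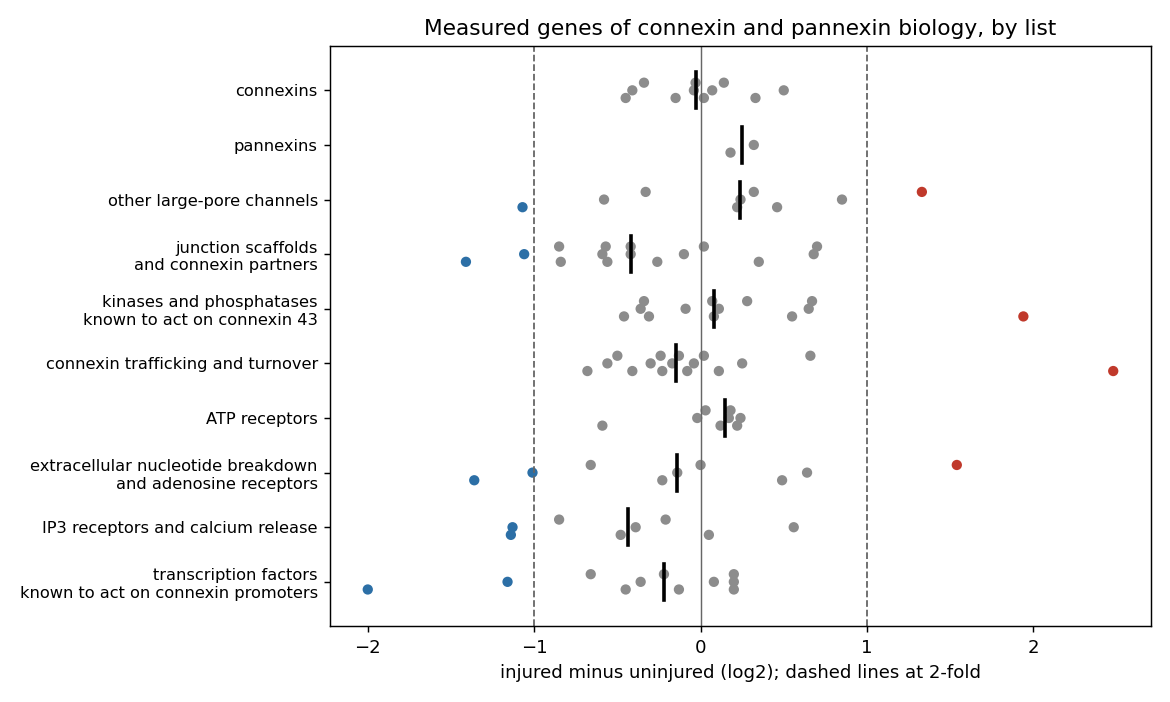
Injured minus uninjured log2 difference (horizontal axis) of every measured gene of 10 lists (vertical axis), with a black bar at the median of each list and dashed lines at 2-fold. Points at least 2-fold higher are red and points at least 2-fold lower are blue. Connexins, pannexins and ATP receptors have no coloured point among 11, 2 and 8 measured genes, beside 8.05% of all genes measured past 2-fold. Lists this short can hold none at that share.

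The labelled tissue was checked against its markers. Krt12, the keratin of the corneal epithelium, read 10.85 in the injured array and 14.07 in the uninjured array, so it was bright in both and 9.34-fold lower in the injured one. Of 8 measured identity markers 6 were at least 2-fold lower, with list means of 9.36 in the injured array and 12.51 in the uninjured array. Conjunctival and goblet markers had 3 of 9 higher and 1 lower (means 9.14 injured, 8.78 uninjured). Keratocyte and stromal markers had 0 higher and 1 of 8 lower (6.25 injured, 6.45 uninjured). It was Dcn (4.77 injured, 6.09 uninjured), which passed the low-signal filter through the uninjured array alone. The defining keratocyte genes Kera and Lum lay below the low-signal level in both arrays. Macrophage and neutrophil markers had 1 of 8 lower, Itgam (-1.55), with list means of 6.64 in the injured array and 6.60 in the uninjured array. The other 7 had higher injured values, all by less than 2-fold, and the median of the list was 0.19. Corneal endothelial markers had 1 of 3 higher (7.16 injured, 6.53 uninjured). It was Col8a1, which read 6.35 in the injured array, against 4.95 in the uninjured array, and so passed the low-signal filter through the injured array alone. Vascular and mural markers had 1 of 5 higher (6.49 injured, 5.98 uninjured), the smooth muscle actin Acta2 (2.25), and the other 4 differed by 0.02 to 0.15. The part of these cells in the connexin values was not tested.

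Each of the 6 genes kept the sign of its difference under the 4 other normalizations and with the added constant. The filters and row choices cannot change these values, since each gene has 1 row, and say nothing about their stability. Gja1 lay between -0.43 and -0.38, Gjb5 between -0.46 and -0.43, and Gjb6 between -0.37 and -0.30. Gjb2 lay between -0.06 and -0.04, Panx1 between 0.30 and 0.33, and Gjb1 between 0.42 and 0.50. These ranges describe the processing of the same 2 arrays and not the variation between animals.

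**Figure D4:**
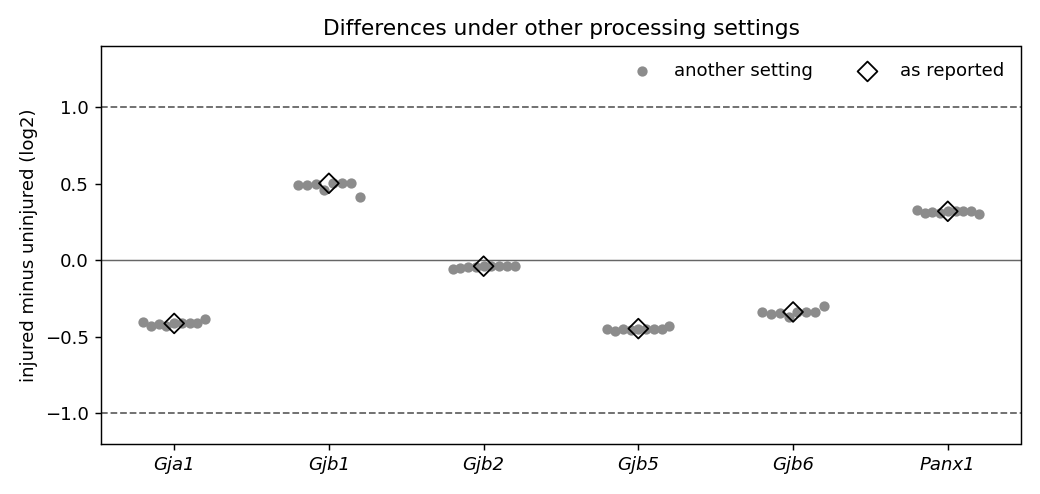
Injured minus uninjured log2 difference (vertical axis) of the 6 genes above the low-signal level (horizontal axis), as reported (open diamonds) and under each other setting (grey points), of which the filters and row choices cannot move a gene with 1 row. No point crosses 0 or reaches the dashed lines at 2-fold, and Gjb1 shows the widest spread, 0.42 to 0.50.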

How the data were processed

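The deposited table holds the authors' log2 intensities, 65952 rows in 2 columns, between 2.54 and 14.07. Agilent Feature Extraction 9.1 is named in the submitters' processing notes, while the labels give biotin as the label and the row IDs have the form of transcript clusters, which that software does not usually give. What made the values is therefore unsettled. For background correction, summary into rows, normalization and build, no method was given in the sources used here. Column medians were 0.0135 apart and 75th percentiles 0.0051, under the 0.1 set for a table kept as deposited.

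Rows were named from the platform annotation, updated through RefSeq GRCm38.p6: 31238 rows had 1 gene, 1508 several and 33206 none here. Of 30717 genes, 19516 had a row whose brighter value reached 5.44, the median of the table, and the brightest row stood for a gene. A log2 difference of 1 or more, injured minus uninjured, counted as higher or lower. The calculation was tested on simulated data and run in Python 3.11.15 with pandas 2.3.3.

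The 7 genes and all lists were chosen with earlier results of these data known. Every connexin and pannexin with a row named here was described, some genes of the family are not reported here, and from each other list up to 4 genes past 2-fold, or the largest difference where none was. Tjp1, Lrrc8a, Jun, Nkx2-5, Krt15, Kera, Lum, Dcn, Itgam, P2rx7, Col8a1, Acta2, and the claudins and desmosome genes lie outside this rule. They were chosen after their values were seen. The rule also asked for the genes nearest in difference to each of the 7 past 2-fold, and there were none. The alternatives were other normalizations, filters, row choices, thresholds and an added linear constant of 11.8; the loess span was 0.3.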

Additional observations from a re-analysis of the deposited data

How the results depend on the processing

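No setting brought a connexin or pannexin to 2-fold. At thresholds of 1.5-fold and 4-fold 0 passed, beside 19.9% and 1.49% of all genes measured. Without the low-signal filter Gjc1 entered, with 0.08. With a filter at the 75th percentile of the table Gjb1 and Gjb6 dropped out, so neither has a value there. The median difference of the family stayed between -0.008 (that filter) and 0.025 (quantile normalization), so its sign is not settled.

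Of the genes of the other 8 lists, 11 were higher and 17 lower at 1.5-fold, and 1 higher and 0 lower at 4-fold, against 4 and 9 at 2-fold; the number past a threshold moves with it by construction. Ccn3 (-0.906) and Plcb4 (-0.995) were under 2-fold with the constant added, Enpp3 (-0.998) just under it after the loess step, and Ccn3 was out under the stricter filter. The median of the nucleotide breakdown list was -0.40 there and -0.07 without a filter, against -0.14. Quantile normalization and equal medians or percentiles changed none of these 13 calls. No paired analysis was possible because each group has 1 array. No detection or saturation call was used, which limits what the dim values show.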
